A study of Mus musculus with 16 samples.

Results

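Ketone body synthesis and export was examined through 6 genes: Acat1, Bdh1, Bdh2, Slc16a1, Slc16a6 and Slc16a7. They were selected by exact gene symbol, and all 6 were found among the 25803 genes of the joined count tables and passed the filter on low counts that left 14488 genes for testing. Poly-A RNA of whole liver was sequenced from male mice that had eaten a high-fat diet for 12 weeks, the same diet in every group. The control mice (called WT in the design text) and the mice with a liver knockout of Cpt1a (LKO) were killed either after a 16 h fast or after that fast and 6 h of refeeding. Each of the 4 groups, fasted control, fasted LKO, refed control and refed LKO, had 4 libraries. The labels give neither the Cre driver or other means by which the gene was deleted, nor the strain or age, and nothing says whether any animals were pooled or whether each library is a separate animal, so p-values measure only the spread between these libraries.

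Ketone bodies are water-soluble fuels that the liver makes from fatty acids during a fast. In hepatocyte mitochondria, acetyl-CoA from beta-oxidation is condensed to acetoacetyl-CoA, converted in further steps to acetoacetate, part of which is reduced to 3-hydroxybutyrate. The liver exports both through monocarboxylate transporters and burns little of either, since hepatocytes hold little of the transferase that starts ketone use. Cpt1a encodes the carnitine palmitoyltransferase that admits long-chain fatty acids to the mitochondrion, upstream of all of these steps.

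Library totals ran from 14721601 to 24618230 counts, and Pearson's r between replicates, across genes that are not independent, was 0.968 to 0.986. Levels are given as CPM, the count divided by the scaled library total in mega counts, in the order of library numbers. The targeted gene Cpt1a stood at 378 to 556 CPM in fasted control and 86.1 to 126 CPM in fasted LKO, and at 319 to 620 CPM in refed control and 39.9 to 75.2 CPM in refed LKO. The genotypes did not overlap in either state (two-sided exact permutation test of 4 against 4 libraries, p = 0.0286, the lowest that so few libraries can give). The 10 hepatocyte markers, Alb and Ttr among them, summed to 68810 CPM or more in every library. Their sum was 82870 to 92250 CPM in fasted control against 68810 to 79340 CPM in fasted LKO, where 3 of the 10 were called lower, and 81580 to 99660 against 72550 to 84290 CPM in the refed groups, where 0 of the 10 were called. The markers did not all move alike. Mean Apoa1 was 11050 CPM in fasted control and 14270 CPM in fasted LKO, and mean Apob 2695 and 3059 CPM, while the means of the other hepatocyte markers were lower in fasted LKO. The 7 lymphocyte markers summed to 4.70 to 8.39 CPM in fasted control and 14.97 to 34.9 CPM in fasted LKO, and to 4.42 to 6.21 against 16.6 to 39.2 CPM when refed. Of the 6 tested, 1 was called higher in LKO in each state. Jchain was the largest part of the LKO sums, at 7.89 to 27.4 CPM fasted and 12.3 to 31.6 CPM refed. In control it was at 0.93 to 3.15 and 0.80 to 2.23 CPM. Each other lymphocyte marker was at 2.53 CPM or below in every library. The sums of the 6 adipocyte markers overlapped between genotypes when fasted (102.9 to 141 against 73.4 to 110.7 CPM) and not when refed (51.5 to 113.6 against 21.5 to 36.95 CPM). Single adipocyte markers did not move alike. Fabp4 was at 9.10 to 22.3 CPM in fasted control and 15.3 to 54.1 CPM in fasted LKO. Refed, Fabp4 overlapped (9.04 to 36.8 against 10.1 to 26.2 CPM), and Plin4 did not (31.4 to 69.85 against 9.09 to 17.1 CPM). Lep was above 0 only in the fasted control library S40 (0.199 CPM), and Adipoq was at 0 in every refed control library. The summed cholangiocyte, stellate, endothelial, macrophage, neutrophil and red cell markers overlapped between genotypes in both states. The fasted LKO library S44 stood apart in several single markers, with the cholangiocyte marker Krt19 at 29.0 CPM against at most 2.23 CPM in the other 15 libraries, Epcam at 7.89 against at most 2.33, Krt7 at 4.59 against at most 1.66 and the stellate marker Des at 22.6 against at most 13.7 CPM. The cholangiocyte markers Spp1 (34.9 CPM) and Sox9 (4.39 CPM) of S44 lay within the range of the other libraries, as did its stellate sum (263 CPM). S44 also had the lowest hepatocyte marker sum, 68810 CPM. The refed control library S49 stood apart in macrophage markers. Its Marco was at 192.5 CPM against at most 34.6 CPM in the other 15 libraries, and its Adgre1 at 48.5 against at most 15.9 CPM. The macrophage sum of S49 was 502.3 CPM against at most 318.0 CPM elsewhere. Without S44 the fasted LKO differences for the enzymes were 0.59 for Bdh1, −1.31 for Bdh2 and 0.37 for Acat1 on the log2 scale (edgeR adjusted p = 0.0122, 0.0069 and 0.0244). The summed markers of muscle (at most 0.433 CPM) and of kidney or pancreas (at most 0.136 CPM) were near 0 in every library. In whole liver, fewer cells of a type and less RNA per cell cannot be told apart.

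The 6 genes differed widely in abundance, which was compared as CPM per kb of the deposited gene length. In fasted control liver Acat1 was highest at 177.6 ± 14.95 CPM per kb and Bdh1 second at 110.0 ± 12.3 (SD, n = 4). Far below them lay Slc16a1 at 6.33 ± 1.32 and Slc16a7 at 6.31 ± 0.73 CPM per kb, whose ranges overlapped. Bdh2 followed at 3.25 ± 0.71 and Slc16a6 was lowest at 0.66 ± 0.24 CPM per kb. Acat1 and Bdh1, whose enzymes work in the mitochondrion, thus lay far above each of the 3 transporters. This order held in all 4 groups, but the neighbours that overlapped changed. Slc16a1 lay clear of Slc16a7 in fasted LKO alone (11.2 to 21.7 against 4.67 to 8.92 CPM per kb). This order of the transporters depends on the deposited lengths, 4426 bases for Slc16a1 and 11839 for Slc16a7, which may not match the transcripts present. In CPM the ranges overlapped in fasted LKO (49.4 to 95.9 against 55.3 to 105.5), and Slc16a7 lay above Slc16a1 in each other group. In fasted LKO Bdh2 sank into the range of Slc16a6 (1.03 to 1.62 against 0.29 to 1.34 CPM per kb), and in refed LKO Bdh1 reached the range of Acat1 (166.9 to 216.6 against 181.8 to 223.7 CPM per kb).

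**Figure D1:**
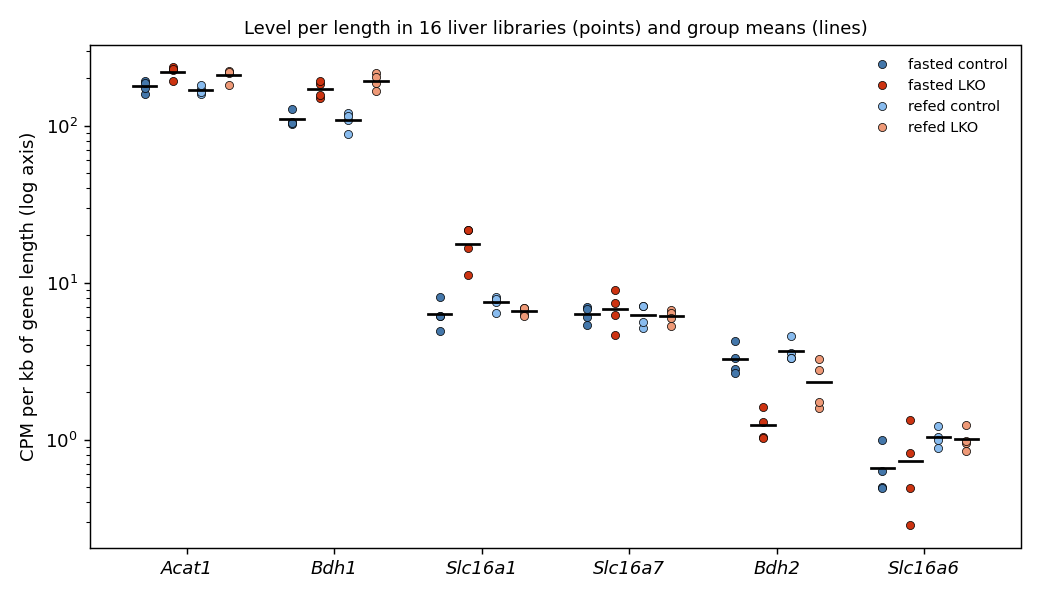
Level of each gene as CPM per kb of gene length on a log axis, with 1 point per library, coloured by group, and lines at the group means of 4 libraries. Acat1 and Bdh1 lie between 88.5 and 234 CPM per kb, the other genes at 21.7 or below, and Slc16a1 is raised in fasted LKO.

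A gene is called here at an edgeR quasi-likelihood adjusted p-value under 0.05 over all 14488 genes (Benjamini-Hochberg). After the fast 4 of the 6 genes were called between genotypes, Slc16a1, Bdh1 and Acat1 higher and Bdh2 lower in LKO, against 12.2% of all genes tested (5.75% higher and 6.48% lower). Refed, 1 of the 6 was called, Bdh1, against 3.63% of all genes. Refeeding gave 0 calls among the 6 in control liver, against 15.4% of all genes (0 also at an unadjusted p under 0.05, which 30.0% of all genes passed, and 0 with DESeq2 or limma-voom). In LKO liver it gave 2, Slc16a1 lower and Bdh2 higher, against 18.1%. The interaction, the genotype effect refed minus that fasted, was called for Slc16a1 alone, against 0.538% of all genes. The median log2 fold change of the 6 genes was 0.24 fasted and −0.04 refed, beside 0.02 and −0.01 over all genes.

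**Figure D2:**
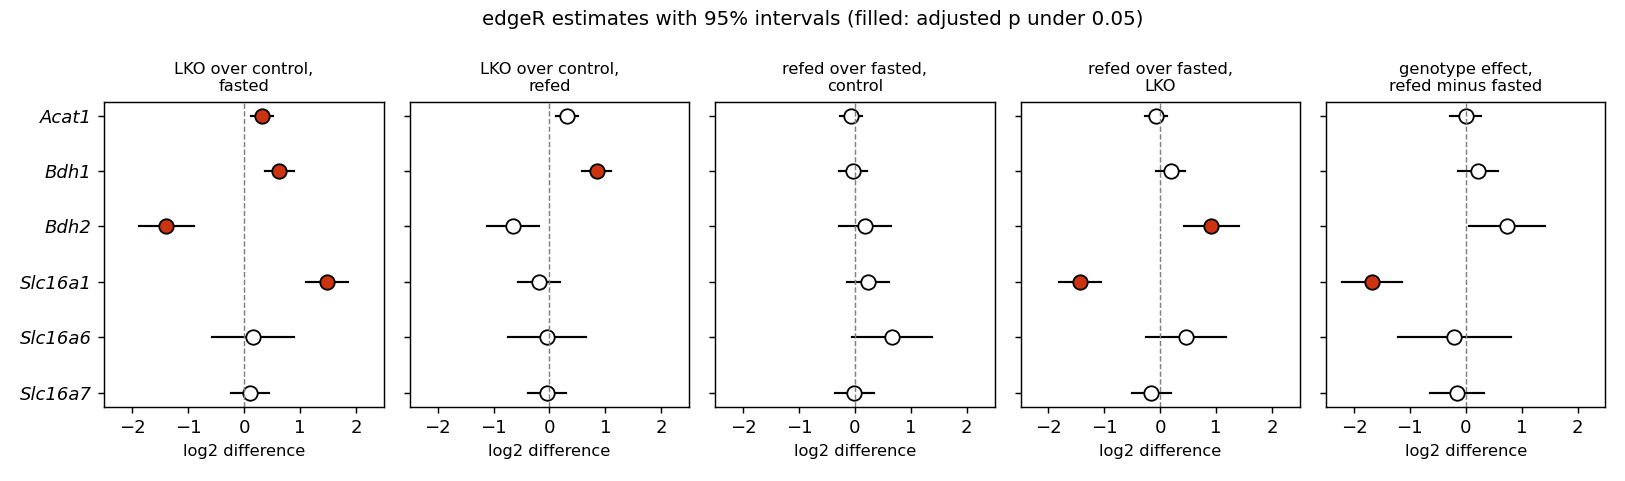
Log2 differences of the 6 genes in the 4 group comparisons and in the interaction (genotype effect refed minus fasted), with 95% intervals from edgeR and filled points where the adjusted p is under 0.05. Slc16a1 is filled in 3 panels with opposite signs, Bdh1 in both genotype panels, and Slc16a6 and Slc16a7 in none.

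Slc16a1 encodes MCT1, the widely expressed proton-linked carrier of lactate, pyruvate and ketone bodies. The gene (ENSMUSG00000032902) spans chromosome 3 from 104545984 to 104565778 on the plus strand in the deposited coordinates, whose build the submitters' processing notes give as mm39. The 250 bases before its RefSeq transcription start are shown because Slc16a1 was the 1 gene of the 6 with a called interaction of genotype and feeding. The window is chr3:104638414-104638663 on the plus strand of GRCm38.p6, a different build from the counts, and capitals mark an E-box, CACGTG, and a GC box, GGGCGG.
Slc16a1 promoter: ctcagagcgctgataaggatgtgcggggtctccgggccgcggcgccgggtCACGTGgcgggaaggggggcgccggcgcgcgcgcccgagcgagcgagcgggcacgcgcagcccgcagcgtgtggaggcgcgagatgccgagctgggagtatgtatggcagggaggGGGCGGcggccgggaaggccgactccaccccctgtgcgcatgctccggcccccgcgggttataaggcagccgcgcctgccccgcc
The window is 76.4% G or C and holds 37 CG dinucleotides, beside medians of 52.4% and 6 over 32851 RefSeq windows of the same length. The E-box starts 200 bases before the transcription start and the GC box 85 bases before it. On either strand, 6.02% of all windows hold the E-box and 32.7% the GC box. No match was found for DR1, the repeat of AGGTCA with 1 base between that PPARA with its partner and HNF4A recognise (0.0335% of windows), for AGGTCA alone, which DR1 contains (14.0%), for TATAAA (12.4%) or for the cAMP response element TGACGTCA (1.55%). A match in such a window is a description of letters and not a mapped site.

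The fasted control libraries held 21.9, 27.3, 27.0 and 35.9 CPM of Slc16a1, and those of fasted LKO held 95.9, 49.4, 73.3 and 95.5 CPM. Every fasted LKO library lay above every fasted control library, as the CPM of 16.9% of all genes did not overlap in this comparison. The gene rose 2.81-fold in fasted LKO (log2 fold change 1.49, SE 0.18, edgeR adjusted p = 2.4e-04). After refeeding the libraries held 35.9, 28.4, 33.6 and 34.6 CPM in control and 30.7, 27.8, 27.1 and 30.5 CPM in LKO. These ranges overlapped, and the refed difference of −0.19 (95% interval −0.56 to 0.19) was not called (adjusted p = 0.627).

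The feeding response of Slc16a1 was tested in each genotype. In LKO liver it fell from 78.5 ± 22.1 CPM fasted to 29.0 ± 1.82 CPM refed (SD, n = 4), by 1.44 on the log2 scale (SE 0.18, edgeR adjusted p = 8.2e-05), to a level inside the range of fasted control. In control liver the means were 28.0 ± 5.82 and 33.1 ± 3.30 CPM, and the log2 difference of 0.24 (95% interval −0.13 to 0.62) was not called (adjusted p = 0.389). The interaction was −1.68 (SE 0.25, edgeR adjusted p = 0.0168), and its p ranked number 3 of the 14488 genes. Its call held with any 1 of the 16 libraries removed (adjusted p 3.8e-04 to 0.0443) and in each of the 6 other settings. Fasted LKO was the group with the widest spread, from S45 at 49.4 CPM to S44 at 95.9 CPM. S44, the library with raised Krt19, was the highest, and S47, with Krt19 at 1.24 CPM, followed at 95.5 CPM. S47 had the highest Sox9 (7.58 CPM) and Spp1 (54.6 CPM) of the 16 libraries. The cholangiocyte marker sums of S44 and S47, 80.96 and 65.45 CPM, were also the highest, against at most 58.65 CPM elsewhere. The part of these sums in the level of Slc16a1 was not tested. Without S44 the fasted difference of Slc16a1 was 1.38 (edgeR adjusted p = 9.2e-04), its refeeding difference in LKO −1.32 (3.9e-04) and the interaction −1.57 (0.0424). The lowest fasted LKO library still exceeded the highest of the other 3 groups, 35.9 CPM.

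**Figure D3:**
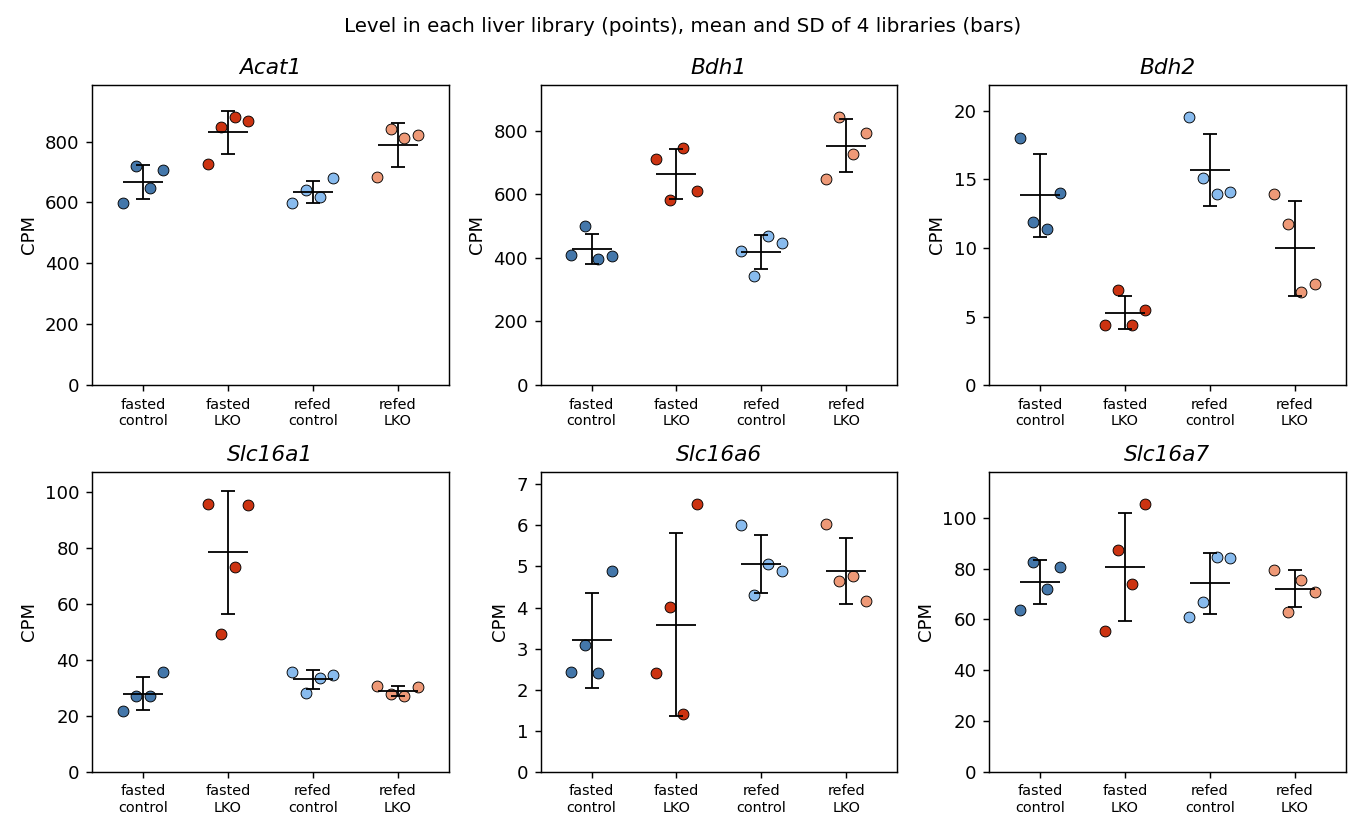
CPM of each gene in every library (points) by group, with the mean and SD of 4 libraries (bars) and a linear axis from 0 in each panel. Slc16a1 is at 49.4 CPM or above in fasted LKO and at 35.9 CPM or below elsewhere, Bdh1 is higher in LKO in both states, and the Bdh2 libraries of fasted LKO lie at 4.37 to 6.90 CPM.

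The other transporters showed no such pattern. Slc16a7 (chromosome 10 from 125055139 to 125225334, minus strand) encodes MCT2, a carrier with high affinity for pyruvate and ketone bodies. It stood at 63.8, 82.4, 71.8 and 80.7 CPM in fasted control and 55.3, 87.4, 74.1 and 105.5 CPM in fasted LKO. The refed values were 61.0, 66.7, 84.6 and 84.3 CPM in control and 79.4, 62.8, 75.6 and 70.8 CPM in LKO. All 4 groups overlapped, and the genotype difference was 0.11 fasted (95% interval −0.23 to 0.45, edgeR adjusted p = 0.720) and −0.04 refed (−0.38 to 0.30, adjusted p = 0.934). Without S47 the fasted difference of Slc16a7 was −0.05 (edgeR adjusted p = 0.884). The intervals with all libraries exclude a rise of the size seen for Slc16a1, whose own fasted interval was 1.11 to 1.87.

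Slc16a6 (chromosome 11 from 109341681 to 109364424, minus strand) encodes MCT7, described as an exporter of 3-hydroxybutyrate from hepatocytes. It was counted 25 to 127 times a library, the fewest of the 6 genes, and it overlaps Arsg and Amz2 on the opposite strand, by 225 and 1959 bases. Use of strand in the counting is not given in the sources used here, so reads of these genes cannot be told apart from its own where they overlap. Its CPM were 2.43, 3.09, 2.40 and 4.88 in fasted control and 2.40, 4.02, 1.40 and 6.53 in fasted LKO. Refed libraries held 6.01, 4.30, 5.06 and 4.89 CPM in control and 6.04, 4.64, 4.76 and 4.16 CPM in LKO. The refed libraries were thus more even, and the genotypes overlapped in both states. Its refeeding difference was 0.66 in control (95% interval −0.06 to 1.38, edgeR adjusted p = 0.206) and 0.46 in LKO (−0.25 to 1.18, adjusted p = 0.385), neither of them called. S47 decided the sign of its fasted genotype difference, which was 0.16 with that library and −0.30 without it (edgeR adjusted p = 0.824 and 0.591).

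The balance between the 3 transporters was described as the share of Slc16a1 in their summed CPM per kb. That share was 47.4% ± 2.76 in fasted control, 48.1% ± 2.45 in refed LKO and 50.7% ± 3.59 in refed control (SD, n = 4). In fasted LKO it was 69.5% ± 9.57, with every library at 57.7% or above, while no other library exceeded 55.96%. These shares depend on the deposited lengths. In CPM without length, mean Slc16a1, Slc16a6 and Slc16a7 were 28.0, 3.20 and 74.7 in fasted control and 78.5, 3.59 and 80.6 in fasted LKO. The sum of the 3 transporters was 13.3 ± 2.14 CPM per kb in fasted control and 25.3 ± 5.32 in fasted LKO. These ratios are built from genes already tested and were given no test of their own.

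**Figure D4:**
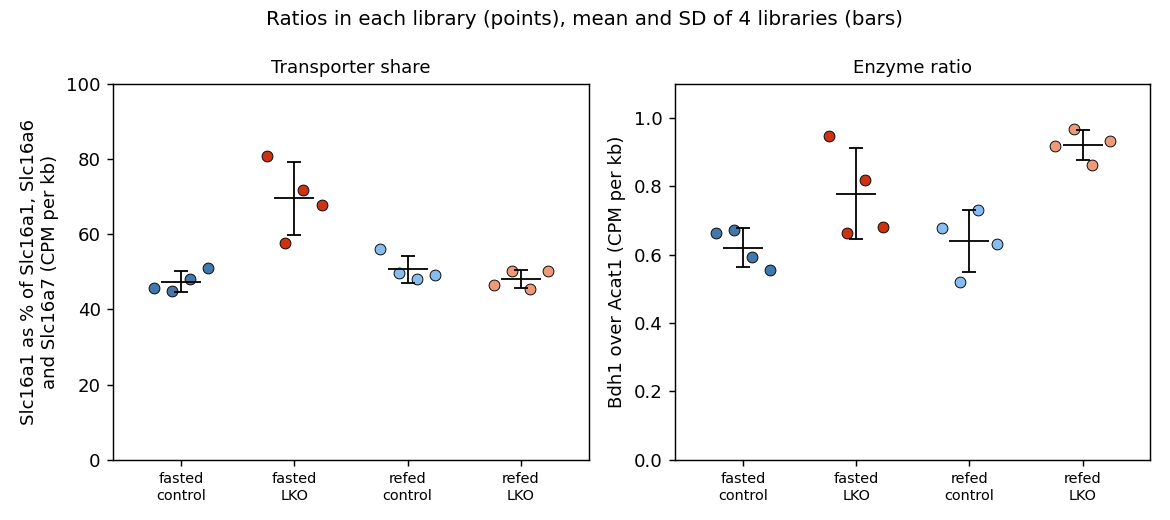
Left, Slc16a1 as a percentage of the summed CPM per kb of Slc16a1, Slc16a6 and Slc16a7; right, Bdh1 over Acat1 on the same scale; points are libraries and bars the mean and SD of 4. The transporter share is raised in fasted LKO (57.7% to 80.8%), and the enzyme ratio is highest in refed LKO (0.86 to 0.97).

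Of the enzymes, Acat1 encodes the mitochondrial acetoacetyl-CoA thiolase, which joins acetyl-CoA units at the head of ketogenesis and also splits acetoacetyl-CoA. Acat1 lies on chromosome 9 from 53491822 to 53521682, minus strand. It stood at 597, 719, 648 and 706 CPM in fasted control and at 726, 848, 881 and 866 CPM in fasted LKO. Refed, it stood at 598, 641, 618 and 682 CPM in control and 683, 841, 812 and 822 CPM in LKO. In both states the genotypes came close without overlapping, as did 16.9% of all genes fasted and 11.7% refed. The estimate was the same in each state, 1.24-fold higher in LKO (log2 fold changes 0.31 and 0.31, SE 0.094 each). It was called fasted (edgeR adjusted p = 0.0374) and not refed (adjusted p = 0.0727), and the difference between the states was 0.00 (95% interval −0.28 to 0.28). The fasted call was lost without S40 (adjusted p 0.117), S42 (0.107), S43 (0.054), S45 (0.070), S46 (0.0996) or S47 (0.075), with no filter (0.081) or with only the 2 groups compared (0.094), and the refed difference was called without S52 (0.042) or with DESeq2 (0.0155).

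Bdh1 encodes the mitochondrial D-3-hydroxybutyrate dehydrogenase, which interconverts acetoacetate and 3-hydroxybutyrate. Bdh1 lies on chromosome 16 from 31241098 to 31277719, plus strand. Fasted libraries held 410, 499, 398 and 405 CPM in control and 712, 583, 746 and 609 CPM in LKO. Refed libraries held 420, 344, 468 and 445 CPM in control and 649, 842, 725 and 792 CPM in LKO. All 8 LKO libraries lay above all 8 control libraries. Within a state, the genotypes did not overlap for 16.9% of all genes fasted and 11.7% refed, and no share was computed for 8 against 8. Bdh1 rose 1.55-fold in fasted LKO (log2 fold change 0.63, SE 0.12, edgeR adjusted p = 0.0033) and 1.80-fold in refed LKO (0.84, SE 0.12, adjusted p = 0.0012). Both calls held in every alternative fit that was run. The lymphocyte marker sums, in LKO mostly Jchain, were also higher in LKO in both states, and their part in the rise of Bdh1 was not tested. The 2 states did not differ by test (interaction 0.21, 95% interval −0.14 to 0.57, edgeR adjusted p = 0.561), and refeeding was not called in control (−0.03, adjusted p = 0.898) or in LKO (0.18, adjusted p = 0.323). Set against Acat1 per length, Bdh1 stood at a fasted ratio of 0.62 ± 0.056 in control and 0.78 ± 0.13 in LKO, and at a refed ratio of 0.64 ± 0.090 in control and 0.92 ± 0.043 in LKO (SD, n = 4). The genotypes did not overlap in this ratio when refed, at 0.52 to 0.73 against 0.86 to 0.97, and they did when fasted.

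Bdh2 encodes a cytosolic short-chain dehydrogenase, also described as the type 2 3-hydroxybutyrate dehydrogenase, and it moved the other way. Bdh2 lies on chromosome 3 from 134986982 to 135010187, plus strand. The 250 bases before its RefSeq start, chr3:135280971-135281220 on the plus strand of GRCm38.p6, are shown beside those of Slc16a1 because the 2 genes had the largest fasted differences of the 6 and in opposite directions. No letters are in capitals, since none of the 6 motifs searched occurs on either strand.
Bdh2 promoter: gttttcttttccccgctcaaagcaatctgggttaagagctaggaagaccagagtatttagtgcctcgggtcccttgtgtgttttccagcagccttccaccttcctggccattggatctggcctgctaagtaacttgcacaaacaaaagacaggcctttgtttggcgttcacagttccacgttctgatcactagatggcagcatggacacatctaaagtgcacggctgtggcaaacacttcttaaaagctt
This window holds 5 CG dinucleotides, and 35.1% of all windows have as little G or C, where 3.04% have as much as that of Slc16a1. RefSeq lists 2 starts for Bdh1, whose windows of 49.6% and 60.8% G or C hold none of the motifs either. Acat1, Slc16a6 and Slc16a7 had no entry in the promoter table.

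Bdh2 stood at 18.0, 11.9, 11.4 and 14.0 CPM in fasted control and at 4.39, 6.90, 4.37 and 5.47 CPM in fasted LKO, with no overlap, as for 16.9% of all genes. It fell in fasted LKO to 38.2% of the control mean (log2 fold change −1.39, SE 0.23, edgeR adjusted p = 0.0014), a call kept in every alternative fit. Refed libraries held 19.6, 15.1, 14.0 and 14.1 CPM in control and 13.9, 11.8, 6.80 and 7.36 CPM in LKO. The lowest refed control (13.97 CPM) and the highest refed LKO library (13.92 CPM) nearly met, and the difference of −0.65 (95% interval −1.12 to −0.19) was not called (adjusted p = 0.114), although it was without S52 (−0.86, adjusted p = 0.046). Refeeding raised Bdh2 in LKO liver 1.89-fold (log2 fold change 0.92, SE 0.23, edgeR adjusted p = 0.0121). Without S52, the highest refed LKO library, this was 0.71 and no longer called (adjusted p = 0.052). In control liver the feeding difference was 0.18 (95% interval −0.29 to 0.64, adjusted p = 0.628). The interaction, 0.74 (SE 0.32), was not called (edgeR adjusted p = 0.254), so the genotype effects of the 2 states were not shown to differ. The fall of Bdh2 in fasted LKO came with the lower hepatocyte marker sums given above, within which Apoa1 and Apob were higher. The part of these sums in the fall of Bdh2 was not tested. Per length, Bdh1 was 35.1 ± 8.98 times as abundant as Bdh2 in fasted control and 144 ± 44.96 times in fasted LKO (SD, n = 4).

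The authors' deposited table gives control over LKO and fasted over refed, so its signs were turned here. So turned, the authors' deposited table gave the same signs as the edgeR fit for the 6 genes in all 4 group comparisons. For Slc16a1 the authors' deposited table then had log2 fold changes of 1.48 fasted and −0.18 refed for LKO over control. For Acat1 the authors' deposited table listed adjusted p-values of 0.0337 fasted and 0.0196 refed, where the edgeR fit called the fasted difference alone.

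Other genes of the pathway were described from lists, beginning with 5 genes of ketogenesis and its supply, Acaa2, Hadha, Hadhb, Sirt3 and Sirt5. Among them 2 were called higher and 1 lower in fasted LKO (median log2 fold change −0.03, all genes 0.02), against 12.2% of all genes called. In refed LKO 3 were called higher and 0 lower (median 0.53, all genes −0.01), against 3.63% of all genes called. Hadhb, the beta subunit of the trifunctional protein that feeds acetyl-CoA into ketogenesis, rose 1.99-fold fasted and 1.71-fold refed (edgeR adjusted p = 3.0e-04 and 0.0038). Sirt3, a mitochondrial deacetylase, fell by 0.31 on the log2 scale in fasted LKO (adjusted p = 0.0173), a call lost without S44 (0.058) or with only the 2 groups compared (0.062). Hadha, the alpha subunit, and Sirt5, a desuccinylase, were called higher in refed LKO, and both calls were lost without S48, S49, S50, S53, S54 or S55 (adjusted p 0.055 to 0.089 and 0.052 to 0.097), that of Sirt5 also with only the 2 groups compared (0.076). In fasted LKO Hadha rose 1.55-fold (edgeR adjusted p = 0.0039). Acaa2, a mitochondrial thiolase of beta-oxidation, was at −0.04 fasted and 0.16 refed and was not called (adjusted p = 0.816 and 0.401).

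Genes of ketone and acetoacetyl-CoA use gave 1 call of 5 tested between genotypes fasted and 0 refed, against 12.2% and 3.63% of all genes. Oxct2a and Oxct2b were below the filter. For the refed genotypes 1 of the 5, Acat2, passed an unadjusted p under 0.05, as did 18.4% of all genes, and 0 were called with DESeq2 or limma-voom. Oxct1, the transferase that starts ketone use, lay at group means of 2.66 to 2.91 CPM and was called in none of the 5 contrasts. Aacs, the cytosolic acetoacetyl-CoA synthetase that turns acetoacetate toward lipid synthesis, fell from 32.7 ± 16.2 to 9.89 ± 2.11 CPM in fasted LKO (log2 fold change −1.73, edgeR adjusted p = 0.0300). That call was lost without S40 (0.101), S42 (0.061), S44 (0.080), S46 (0.074) or S47 (0.065), or with limma-voom (0.091). From fasted to refed LKO, Aacs rose 7.22-fold (log2 fold change 2.85, edgeR adjusted p = 0.0011), and Acat2 and Acss2 rose too, by 1.19 and 0.67. Acat2, the cytosolic thiolase, has a near-identical neighbour in Acat3, so their counts are uncertain, and Acss2 lost its call without S44 (0.092), S53 (0.130) or S55 (0.066), or with only the 2 groups compared (0.066).

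Among the other SLC16 family transporters, 8 of 10 were tested. In fasted LKO 0 were called higher and 2 lower (median −0.60, all genes 0.02), against 12.2% of all genes called. In refed LKO 0 were called, against 3.63% of all genes (4 of the 8 at an unadjusted p under 0.05, which 18.4% of all genes passed, 2 with DESeq2 and 0 with limma-voom). Slc16a11, a pyruvate carrier of hepatocytes, fell in fasted LKO from 38.2 ± 8.57 to 16.3 ± 2.83 CPM (SD, n = 4; log2 fold change −1.23, edgeR adjusted p = 8.0e-04). Slc16a12, a creatine carrier, fell by 0.83 on the log2 scale (adjusted p = 0.0104) and rose on refeeding in LKO liver (1.17, adjusted p = 6.5e-04), the direction opposite to that of Slc16a1. Slc16a8 was below the filter and Slc16a14 was not analysed here.

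Bsg encodes basigin, the chaperone that carries MCT1 to the cell surface. It stood at 598 ± 48.9 CPM in fasted control and 509 ± 67.5 CPM in fasted LKO (SD, n = 4), a difference of −0.23 that was not called (edgeR adjusted p = 0.146). Emb and Nptn, related chaperones, were not called in any contrast either. Slc5a8 was below the filter and Slc5a12 was not analysed here. Of 12 regulators of ketogenesis, Fgf21, Mtor and Ncor1 were called higher in fasted LKO and 0 lower (median 0.17), against 12.2% of all genes called. Refed, 0 of the 12 were called (median −0.04), against 3.63% of all genes. There Fgf21, 1 of the 12, passed an unadjusted p under 0.05, against 18.4% of all genes, and 0 were called with DESeq2 or limma-voom. Ncor1, a nuclear receptor corepressor that restrains PPARA, rose by 0.60 on the log2 scale (edgeR adjusted p = 0.0021) and Mtor, a kinase that restrains ketogenesis, by 0.66 (adjusted p = 0.011). Ppara itself was not called (0.45, adjusted p = 0.161). Fgf21, a fasting hormone that promotes ketogenesis, rose by 1.84 (adjusted p = 0.045), a call lost without S41 (0.085), S42 (0.111), S43 (0.115), S44 (0.130) or S46 (0.080), or with only the 2 groups compared (0.052).

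**Figure D5:**
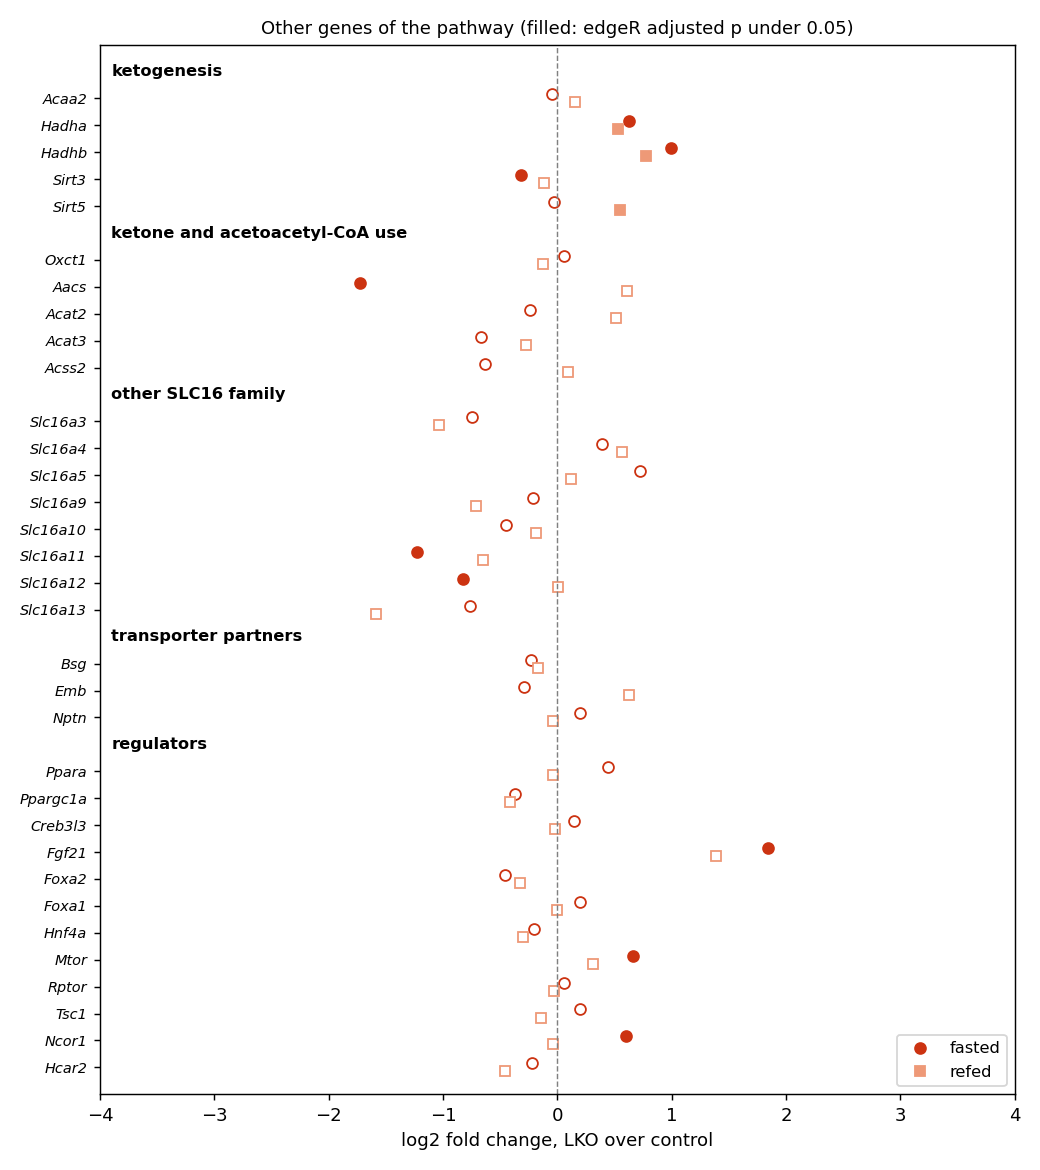
Log2 fold changes of LKO over control for the other reported genes of the pathway, fasted (circles) and refed (squares), filled where the edgeR adjusted p is under 0.05. Hadha and Hadhb are filled in both states, while Slc16a11 (−1.23) and Slc16a12 (−0.83) are filled on the lower side when fasted.

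The genes most like each of the 6 were sought among 8895 protein-coding genes with a mean of at least 5 CPM, by Pearson's r of log2 CPM over the same 16 libraries, as a description. Slc16a1 was most like Rhou (r = 0.92), AU022252 (0.91) and Pdk4 (0.91). Bdh1 was most like Sumf2 (0.95), Ube2j2 (0.93) and Tor1a (0.93), and Bdh2 most like Nat8f1 (0.94), Inmt (0.93) and Tmem86b (0.93). Acat1 was most like Acadm (0.93), Ech1 (0.91) and Pctp (0.86), the first of which encodes the medium-chain acyl-CoA dehydrogenase of beta-oxidation. Slc16a6 was most like Tubb6 (0.90), Net1 (0.86) and Castor2 (0.85), and Slc16a7 most like Bche (0.89), Cp (0.85) and Atg5 (0.85). These libraries share their groups and scaling, so such values follow group differences as well as differences between libraries of a group.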

How the data were processed

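Poly-A RNA of 16 liver libraries, prepared with dUTP, was analysed. Per the submitters' processing notes the authors used HISAT2 2.0.5 and mm39; the counter, its use of strand and the annotation are not given in the sources used here. The authors deposited 4 tables of raw counts per gene for 8 libraries each, beside gene length in bases, log2 fold changes and p-values of their own comparisons, per the file headers. A library's group came from its table heading; library numbers S40 to S55 carry no replicate number. The tables were joined on gene identifier (25803 genes); no count differed between tables, and 3148 genes missing from a library's tables were set to 0 there. A further 64 per-library columns were not used.

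Counts were filtered (14488 genes kept), scaled by TMM (factors 0.941 to 1.07) and fitted over all 16 libraries and 4 groups with edgeR 4.0.16 (R 4.3.3), by the quasi-likelihood test with Benjamini-Hochberg adjustment over all genes. The 5 contrasts share libraries and are not independent. SEs were taken from the log2 fold change and its F statistic, and likeness used log2 CPM with a prior count of 2. The fit was tested on simulated data for the fasted genotypes, with 1 biological coefficient of variation, 0.185, for all genes. Of 14488 genes run, 100 were changed by 1.5-fold and 100 by 2.5-fold, a smaller share than the 12.2% called in the data. The fit recovered 28% of 1.5-fold and 92% of 2.5-fold changes, and 2.44% of the genes called were false. In that setting changes near 1.5-fold thus often went uncalled, and the share missed in the real data may differ. Alternatives were RLE and upper quartile factors, no filter or a mean of at least 5 CPM, DESeq2 1.42.0, limma-voom (limma 3.58.1), only the groups compared, and each library left out. Named genes were Cpt1a, the 6 genes, the genes of the pathway lists, and for each of the 6 the 3 most alike protein-coding genes. The members and lists were chosen with earlier results of these data known. Some genes of the pathway lists are not reported here, and the counts leave them out.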

Additional observations from a re-analysis of the deposited data

Results flagged for a closer look

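Among 28 groups of 4 libraries examined for a library far from the rest, 1 was found, where chance gives about 1 in 20. Bdh1 in fasted control was 499 CPM in S41, beside 398 to 410 CPM in the other 3 libraries, a gap above Dixon's critical value.

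The LKO effect on Slc16a1 differed between feeding states by the edgeR interaction test. Refed minus fasted it was −1.68 on the log2 scale (adjusted p = 0.0168).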

How the results depend on the processing

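The calls of Slc16a1 (fasted genotypes, refeeding in LKO, interaction), Bdh1 (both states) and Bdh2 (fasted) held under every alternative run. Counts over all genes moved more. Leaving out single libraries gave 1048 to 1985 genes for the fasted genotypes (1772 with all, lowest without S44), 197 to 517 refed (526), 1220 to 2483 for refeeding in control (2238), 1795 to 2448 in LKO (2616) and 8 to 282 for the interaction (78). DESeq2 called 924 genes refed and 467 for the interaction, and the filter at a mean of 5 CPM called 197 for the interaction. Of the 6 genes, 3 to 4 were called fasted, 1 to 3 refed (2 with DESeq2) and 1 to 2 for refeeding in LKO when single libraries were left out. The cause was not tested.

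Differences near 0 changed sign, none of them called. With limma-voom Slc16a6 was −0.0175 fasted. The Acat1 interaction was −0.0163 with upper quartile factors, −0.0018 at a mean of 5 CPM and −0.0026 with limma-voom. Leaving out single libraries gave −0.295 to 0.428 (Slc16a6) and −0.0484 to 0.2535 (Slc16a7) fasted, −0.164 to 0.0435 and −0.1228 to 0.03 refed, −0.0863 to 0.0538 (Bdh1) and −0.0796 to 0.0734 (Slc16a7) for refeeding in control, and −0.0597 to 0.0646 (Acat1), −0.474 to 0.2496 (Slc16a6) and −0.2937 to 0.0085 (Slc16a7) for the interaction. Slc16a6 has no value at a mean of 5 CPM, and its counts of 25 to 127 limit its precision. No paired analysis was possible because the count columns carry no replicate number.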
